A study of Homo sapiens with 6 samples.

Results

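The genes described here decide whether a cell leaves G1 and starts to copy its DNA: the D-type cyclins CCND1, CCND2 and CCND3, their kinases CDK4 and CDK6, the CIP/KIP inhibitors CDKN1A, CDKN1B and CDKN1C, and the INK4 inhibitors CDKN2B and CDKN2C. They were taken by gene symbol, and all 10 were found among the 26485 genes of the table. They were measured in PC9, a human cell line from non-small cell lung cancer that carries an activating EGFR mutation and depends on EGFR signalling for growth. Parental PC9 cells were untreated, in 3 libraries. Dacomitinib resistant PC9 cells, also in 3 libraries, came from parental cells exposed for 6 months to dacomitinib at concentrations raised between 1 pM and 100 nM, and were in 100 nM dacomitinib when compared. Dacomitinib binds EGFR, ERBB2 and ERBB4 irreversibly. Both groups come from the same line, and whether the resistant cells kept its EGFR mutation was not examined here. A resistant group without drug was not analysed here, so the effect of drug in the medium and the resistant state cannot be told apart. The labels do not say whether the replicates were separate cultures, nor whether the resistant line was 1 clone.

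D-type cyclins are made in answer to growth factor signals, and CCND1 is a known target of EGFR and ERK signalling. They bind and activate CDK4 or CDK6, and these kinases phosphorylate the retinoblastoma protein RB1, which then releases E2F transcription factors to switch on genes for DNA replication. INK4 proteins such as p15 (CDKN2B) and p18 (CDKN2C) bind CDK4 and CDK6 and block cyclin binding, whereas CIP/KIP proteins such as p21 (CDKN1A), p27 (CDKN1B) and p57 (CDKN1C) bind whole cyclin and kinase complexes and are strong inhibitors of CDK2. Transcription of CDKN1A and CDKN2B is a classical response to TGF-beta, which acts on both promoters through SMAD proteins and GC boxes bound by Sp1.

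The promoters of CDKN1A and CDKN2B, the inhibitor genes that rose in resistant cells, are shown for this reason. Whether TGF-beta or GC boxes had a part in these rises was not tested. RefSeq promoter windows of 250 bases before the start (GRCh38.p14) matched 7 of the 10 genes: CCND3, CDK4, CDK6, CDKN1A, CDKN1B, CDKN2B and CDKN2C. Both sequences run 5′ to 3′ on the strand of the gene, with GC boxes (GGGCGG, searched on both strands, so also CCGCCC, overlapping boxes counted singly) in capitals. The CDKN1A window is chr6:36678464-36678713 on the plus strand and the CDKN2B window chr9:22009306-22009555 on the minus strand.
CDKN1A: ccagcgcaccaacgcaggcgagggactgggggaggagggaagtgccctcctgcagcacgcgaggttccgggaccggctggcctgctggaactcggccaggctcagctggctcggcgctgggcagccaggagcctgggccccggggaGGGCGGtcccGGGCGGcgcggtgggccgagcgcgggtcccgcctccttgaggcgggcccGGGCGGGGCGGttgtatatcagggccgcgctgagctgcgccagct
CDKN2B: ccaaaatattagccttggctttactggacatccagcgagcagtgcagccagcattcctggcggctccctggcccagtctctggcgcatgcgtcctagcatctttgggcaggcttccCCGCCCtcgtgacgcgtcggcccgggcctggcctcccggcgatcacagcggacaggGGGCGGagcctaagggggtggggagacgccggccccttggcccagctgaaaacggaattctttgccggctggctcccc
The CDKN1A window held 4 GC boxes, 2 of them overlapping, and the CDKN2B window held 2. Over all 35116 RefSeq promoter windows of this length, 42.6% held at least 1 box, 24.3% at least 2 and 13.9% at least 3. The genes that were not called also held GC boxes, 5 in CCND3, 3 each in CDK4 and CDK6 and 1 in CDKN1B, while the CDKN2C window held 0. The AP-1 site TGACTCA (in 4.20% of all windows), the CRE TGACGTCA (1.65%) and the palindromic SMAD motif GTCTAGAC (0.182%) were found in none of the 7 windows. This says only that these letters are not within them, and shorter SMAD motifs were not searched.

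Of the 10 genes, 8 had an adjusted p and 3 of these (37.5%) passed 0.05 in the authors' deposited table: CDKN1A and CDKN2B were higher in resistant cells and CCND1 was lower. Over all 13494 tested genes 28.2% were called, 13.3% higher and 14.8% lower, so the share called among the 8 was near the background and is not a result about them as a group. The median log2 fold change of the 8 was 0.22, against 0.02 over all tested genes. Values below are normalized counts, reads divided by each library's size factor, and were recovered per library from the authors' deposited table. Each set of 3 values is ordered by size factor, 0.539, 1.03 and 1.08 in parental and 1.06, 1.19 and 1.37 in resistant libraries, so the first parental library had the fewest reads. Groups are given as mean ± SD (n = 3), and log2 fold changes as resistant over parental with the standard error of the authors' fit. Only the 3′ end of each transcript was read, so counts do not scale with transcript length, although 3′ ends of different genes can be captured unequally. In RNA of bulk cultures, fewer cells with a transcript and less of it per cell cannot be told apart.

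**Figure D1:**
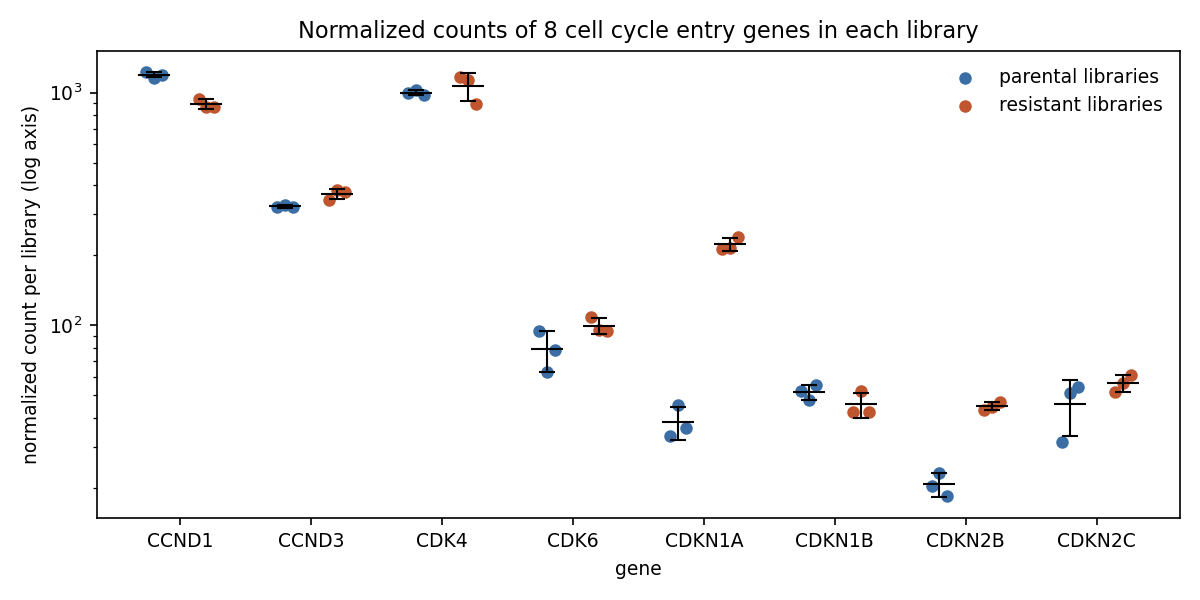
Normalized counts (log axis) of the 8 genes with an adjusted p, 1 point per library, parental in blue and resistant in orange, with horizontal bars at the mean and whiskers of 1 SD (n = 3). Resistant libraries lie above all parental ones for CDKN1A, at 213 to 241 against 33.4 to 45.5, and for CDKN2B, and below them for CCND1.

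CCND1, the D-type cyclin that growth factor signalling induces most directly, was the most abundant of the 3 and fell in resistant cells. Its normalized counts were 1228, 1163 and 1197 in parental and 943, 871 and 869.6 in resistant libraries. Every resistant library lay below every parental one, at 894 ± 41.9 against 1196 ± 32.5. The authors' deposited table gave a log2 fold change of -0.42 ± 0.08 with adjusted p = 4.22e-07, a fold of 0.749 with a 95% interval from 0.675 to 0.830. CCND1 lies at chr11:69641087-69654474 on the plus strand, in a stretch where 116 of 160 tested genes within 5 Mb also had folds below 0, 74 of them called lower and 10 called higher. The median log2 fold change of those neighbours was -0.33, and less that median CCND1 stood at -0.088, which did not pass (p = 0.245, Wald test with the authors' standard error). CCND1 overlaps LTO1 on the other strand, and whether reads were assigned by strand is not given in the sources used here.

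CCND3, which also activates CDK4 and CDK6, stood at 321, 329 and 323 in parental libraries and at 345, 381 and 375 in resistant libraries. The groups did not overlap, at 324 ± 4.21 and 367 ± 19.3, but CCND3 was not called. Its fold change by the authors' deposited table was 0.18 ± 0.11 (adjusted p = 0.236), and the 95% interval ran from -0.03 to 0.39. CCND2 had 0 reads in all 6 libraries. A count of 3 reads over a group, the limit that a count of 0 allows for counting error, would be a mean normalized count of 1.13 in parental and 0.828 in resistant cells. Its antisense gene CCND2-AS1 was also listed at 0. Widely used genes such as RPL10 (mean count 0.571) were near 0 in this table too, so 0 reads are not read as absence.

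The kinase genes did not pass. CDK4 was about as abundant as CCND1, at 1002, 1023 and 975 in parental and 1166, 1138 and 895 in resistant libraries. The resistant libraries spread over a wider range (1066 ± 149) that takes in the parental one (999.6 ± 24.0). For CDK4 the authors' deposited table held 0.09 ± 0.10 (adjusted p = 0.561), with a 95% interval from -0.10 to 0.28. CDK4, at chr12:57747727-57756013 on the minus strand, overlaps TSPAN31 and MARCH9 on the other strand. Their mean counts were 52.1 and 40.3, against 1033 for CDK4. Since the strand of counting is not given, this does not bound the reads of theirs that may have been counted as CDK4. Less the median of its 113 tested neighbours, 0.20, CDK4 stood at -0.11, so its direction depends on that setting. CDK6, the partner kinase, was much less abundant, at 94.6, 62.9 and 78.4 in parental and 108, 95.1 and 94.0 in resistant libraries. The groups overlapped through the first parental library, at 78.6 ± 15.9 and 99.1 ± 7.84. Its fold change in the authors' deposited table was 0.36 ± 0.20 with adjusted p = 0.195, and its 95% interval, from -0.04 to 0.76, holds differences of more than 1.5-fold. CDK6 lies at chr7:92604921-92836594 on the minus strand.

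CDKN1A, which encodes p21, had the largest difference of the 10 genes. It had 18, 47 and 39 reads in parental and 227, 256 and 330 in resistant libraries, or normalized counts of 33.4, 45.5 and 36.0 against 213, 215 and 241. The lowest resistant library was far above the highest parental one, at 223 ± 15.1 against 38.3 ± 6.36. The log2 fold change in the authors' deposited table was 2.52 ± 0.20 (adjusted p = 2.17e-34), a 5.74-fold rise with a 95% interval from 4.37 to 7.53. The gene lies at chr6:36676460-36687339 on the plus strand, and the 111 tested genes within 5 Mb had a median of 0.02, with 17 called higher and 17 lower. CDKN1A overlaps DINOL on the other strand, which was not analysed here.

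Neither of the other CIP/KIP genes was called. CDKN1B, which encodes p27 and is controlled largely through the stability of its protein, stood at 51.9, 47.4 and 55.3 in parental and 42.3, 52.2 and 42.3 in resistant libraries. The groups overlapped, at 51.6 ± 3.98 and 45.6 ± 5.71. By the authors' deposited table the fold change was -0.18 ± 0.26 (adjusted p = 0.699), with a 95% interval from -0.68 to 0.33. CDKN1C, which encodes p57 and is imprinted, had 0, 1 and 2 reads in parental and 0, 1 and 1 in resistant libraries, with no adjusted p. At 3 reads or fewer in each group, a difference in CDKN1C was not detectable at this depth.

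CDKN2B, which encodes the INK4 protein p15, rose. Its reads were 11, 24 and 20 in parental and 46, 53 and 64 in resistant libraries, or normalized counts of 20.4, 23.2 and 18.4 against 43.2, 44.6 and 46.7. The groups were far apart for so low a gene, at 20.7 ± 2.40 and 44.8 ± 1.72. By the authors' deposited table the log2 fold change was 1.12 ± 0.32 (adjusted p = 0.00325), 2.17-fold with a 95% interval from 1.39 to 3.37. CDKN2B lies at chr9:22002903-22009363 on the minus strand. The 19 tested genes within 5 Mb had a median of 0.17, less which CDKN2B stood at 0.95. The antisense gene CDKN2B-AS1 overlaps it on the plus strand, and had 5, 2 and 3 reads in parental and 10, 14 and 13 in resistant libraries. Its normalized counts were 9.27, 1.93 and 2.77 against 9.40, 11.8 and 9.48. The first parental library thus stood close to the lowest resistant one. Since the strand of counting is not given, reads of the antisense partner cannot be told apart from those of CDKN2B. The mean count assigned to CDKN2B-AS1 was 7.44, against 32.8 for CDKN2B. This does not bound the antisense reads that may have been counted as CDKN2B. By the authors' deposited table CDKN2B-AS1 itself did not pass, at 1.33 ± 0.72 (adjusted p = 0.170).

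CDKN2C, which encodes p18 and is also an E2F target, stood at 31.5, 51.3 and 54.4 in parental and 51.7, 56.4 and 61.2 in resistant libraries. The first parental library was well below the other two, and those overlapped with the resistant libraries. The difference of 0.26 ± 0.26 did not pass (adjusted p = 0.535, 95% interval from -0.25 to 0.77) by the authors' deposited table. CDKN2C lies at chr1:50960745-50974633 on the plus strand.

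**Figure D2:**
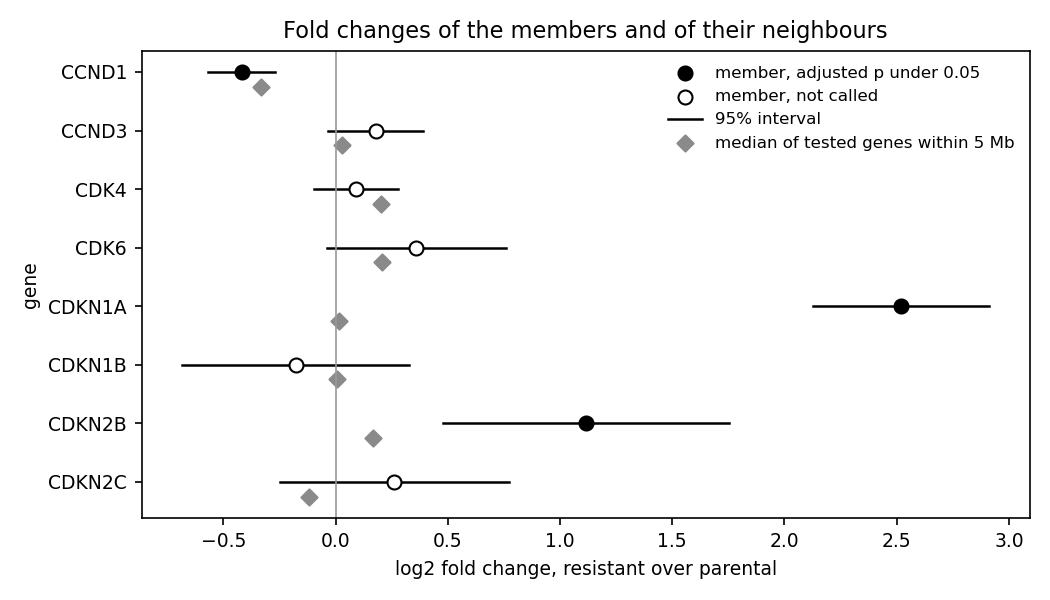
Log2 fold change of resistant over parental cells for the 8 tested genes, with 95% intervals from the authors' standard errors, filled where the adjusted p was under 0.05, and grey diamonds for the median of tested genes within 5 Mb. CDKN1A and CDKN2B lie well to the right of their neighbours' medians, while CCND1 at -0.42 lies close to the median of its own, -0.33.

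The order of the transcripts differed between groups most clearly for CDKN1A. In parental cells it ran CCND1, CDK4, CCND3, CDK6, CDKN1B, CDKN2C, CDKN1A and CDKN2B, where the libraries of CDKN1B and CDKN2C, and those of CDKN2C and CDKN1A, overlapped. In resistant cells CDKN1A came next after CDK4, CCND1 and CCND3, above CDK6, with no overlap with either neighbour. CDK4 and CCND1 overlapped there, so their exchange of places is within the spread. CDKN2C overlapped with CDKN1B, and CDKN1B with CDKN2B, the lowest.

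Summed by class, the D-type cyclins went from 1520 ± 28.5 to 1261 ± 23.2 normalized counts and the CIP/KIP genes from 90.8 ± 4.73 to 269 ± 14.0, without overlap of the libraries in either. The cyclin sum was thus 18.2, 15.9 and 16.3 times the CIP/KIP sum in parental libraries and 5.04, 4.66 and 4.39 times in resistant ones. CCND1 made up 78.7% ± 0.671 of D-type cyclin counts in parental and 70.9% ± 2.02 in resistant libraries, and CCND3 nearly all of the rest. CDKN1A made up 42.1% ± 5.54 of CIP/KIP counts in parental libraries and 82.8% ± 2.35 in resistant ones. The sum of CDKN2B and CDKN2C went from 66.4 ± 12.6 to 101 ± 6.48, and the CDKN2B share from 31.9% ± 7.02 to 44.3% ± 1.16. The sum of CDK4 and CDK6 overlapped between groups, at 1078 ± 22.5 and 1165 ± 154, as did the CDK6 share of it, at 7.29% ± 1.42 and 8.57% ± 0.899. These sums and shares were built from genes chosen with their changes known and are given as descriptions with no test.

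**Figure D3:**
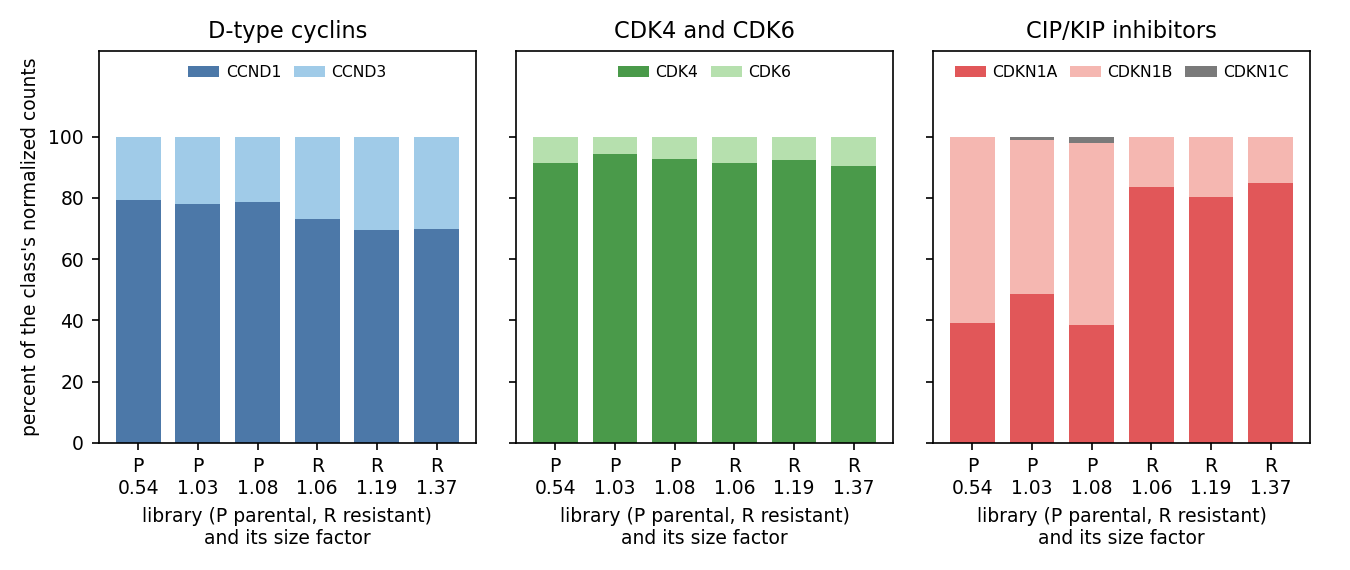
Share of each gene in the normalized counts of its class in each library, in percent, for D-type cyclins, CDK4 and CDK6, and CIP/KIP inhibitors, with bars labelled by group and size factor. The CDKN1A share lies between 38.6% and 48.5% in the parental libraries and between 80.3% and 84.8% in the resistant ones, while the CDK6 share overlaps between groups.

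Downstream of the D-type cyclins, RB1, the main substrate of CDK4 and CDK6, did not pass, at 9.27, 20.3 and 12.9 normalized counts in parental and 18.8, 16.0 and 26.2 in resistant libraries, overlapping groups. For RB1 the authors' deposited table gave 0.48 ± 0.45 (adjusted p = 0.500), and for E2F1, the first of the activating E2F genes, -0.08 ± 0.17 (adjusted p = 0.805). Of 13 tested pocket protein and E2F genes, 2 were called lower and 0 higher, with a median of -0.10. The 15.4% called lower was near the 14.8% over all tested genes. At an unadjusted p of 0.05 the Wald test gave 4 lower and 0 higher. E2F8, an atypical E2F that represses E2F targets late in S phase, went from 89.0, 109 and 115 to 26.3, 25.2 and 37.2 normalized counts, far outside the parental range. By the authors' deposited table E2F8 stood at -1.82 ± 0.24 (adjusted p = 1.60e-12) and the activator E2F2 at -0.81 ± 0.23 (adjusted p = 0.00240).

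Replication genes that E2F switches on were lower where they were called: of 18 tested, 8 were lower and 0 higher, with a median of -0.19, and 9 and 0 at an unadjusted p of 0.05 of the Wald test. This is 44.4% lower, against 14.8% over all tested genes, which were not matched for abundance. Of the 8 calls, 1 was left with the 2-fold rule and 7 after centring on well-expressed genes. RRM2, a subunit of ribonucleotide reductase, went from 315, 285 and 278 to 111, 150 and 117 normalized counts. RRM2 was at -1.21 ± 0.14, the helicase subunit MCM2 at -0.58 ± 0.11 and the transcription factor MYBL2 at -0.58 ± 0.09 (adjusted p = 1.53e-15, 5.04e-07 and 3.10e-10) in the authors' deposited table.

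The kinases that follow in late G1 were mixed. CCNE1, the E-type cyclin that activates CDK2, stood at -0.30 ± 0.17 (adjusted p = 0.193), CCNE2 at 0.71 ± 0.37 (adjusted p = 0.160) and CDK2 at 0.07 ± 0.22 (adjusted p = 0.871), none of which passed in the authors' deposited table. This list had 8 tested genes, of which 1 was higher and 2 lower, with a median of -0.08. These are 12.5% and 25%, against 13.3% and 14.8% over all tested genes. CCNA2, the S phase partner of CDK2, fell by 0.39 ± 0.09 and CDK7, the kinase that activates other CDKs, by 0.55 ± 0.14, while CDK7's cyclin CCNH rose by 0.32 ± 0.12, all on the log2 scale of the authors' deposited table.

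Genes that inhibit or assemble CDK complexes apart from the 10, 7 in number, had 2 called higher and 0 lower, with a median of 0.21, and 2 and 0 at an unadjusted p of 0.05 of the Wald test. The 28.6% called higher stands against 13.3% over all tested genes, in a list of only 7. The smaller of the 2 rises was that of CDC37, a chaperone partner that helps fold CDK4, at 0.22 ± 0.08 (adjusted p = 0.0226) by the authors' deposited table. Of 16 tested genes that act in the breakdown of D-type cyclins and KIP proteins, 2 were lower and 0 higher, with a median of -0.13, and 3 lower and 1 higher at an unadjusted p of 0.05 of the Wald test. The 12.5% called lower was below the 14.8% over all tested genes. The called genes were the cullin ligase subunits RBX1 (-0.63 ± 0.11) and DDB1 (-0.61 ± 0.07), by the authors' deposited table (adjusted p = 4.85e-08 and 2.00e-16). Protein levels of the cyclins and inhibitors were not measured.

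Among 24 tested regulators known to act on transcription of the 10 genes, 4 were called higher and 8 lower, with a median of -0.14. These are 16.7% and 33.3%, against 13.3% and 14.8% over all tested genes. FOS, an AP-1 subunit that ERK signalling induces and that can activate CCND1, went from 87.2, 84.2 and 76.5 to 3.76, 2.52 and 6.56 normalized counts. By the authors' deposited table FOS stood at -4.23 ± 0.43, FOXO1, a factor that AKT signalling restrains and that can activate CDKN1B, at -2.36 ± 0.46, and SMAD3, a carrier of TGF-beta signals, at -0.74 ± 0.14 (adjusted p = 4.87e-21, 2.43e-06 and 2.16e-06). LEF1, a partner of beta-catenin at the CCND1 promoter, rose by 2.19 ± 0.43, STAT3 by 0.97 ± 0.35 and ETS2 by 0.68 ± 0.24 (adjusted p = 2.94e-06, 0.0228 and 0.0167) in the authors' deposited table. TP63, a transcription factor of basal epithelial cells, went from 0 reads in each parental library to 24, 31 and 42 in resistant libraries.

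TGF-beta target genes other than CDKN1A and CDKN2B were mostly higher: of 13 tested, 11 were higher and 0 lower, with a median of 1.34, against 13.3% higher over all tested genes, and the Wald test at an unadjusted p of 0.05 gave the same counts. Among those fitted at a mean count of at least 1 in both groups, the largest rises were those of the actin-binding protein gene TAGLN at 5.45 ± 0.29, the matrix protein gene FN1 at 5.40 ± 0.12 and the collagen gene COL1A1 at 4.11 ± 0.82 in the authors' deposited table. CTGF was called higher too, from 0 reads in each parental library to 10, 11 and 10 in resistant libraries. COL1A1 is also on the list of fibroblast markers below. The rise of TGF-beta targets had been seen in these data before the list was drawn up, so it is not independent evidence of its direction.

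**Figure D4:**
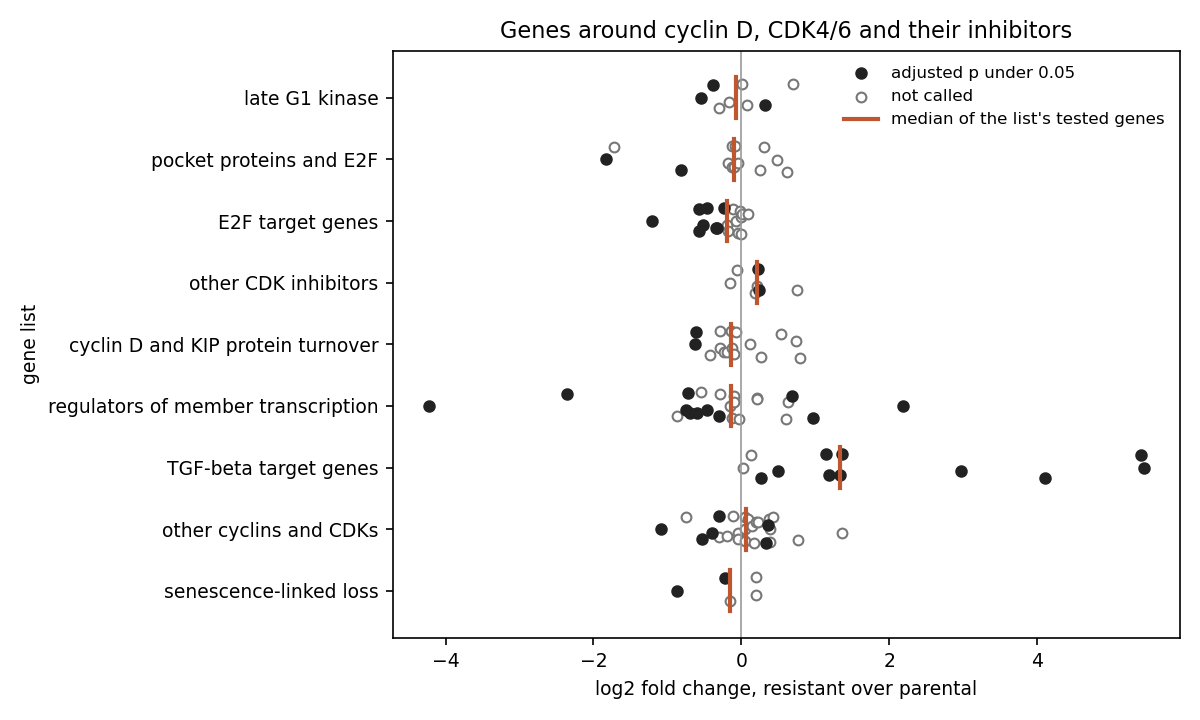
Log2 fold change of resistant over parental cells for tested genes of 9 lists around cyclin D, CDK4, CDK6 and their inhibitors, 1 point per gene, filled where the adjusted p was under 0.05, with orange bars at each list's median over all its tested genes; genes fitted at a mean count under 1 in either group are left out as points. The TGF-beta list has its median at 1.34 and the E2F target list at -0.19, and the others lie between -0.15 and 0.21.

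Markers of the line and of other cells were read beside these results. The epithelial genes EPCAM, KRT8 and KRT18 were abundant, with mean counts of 6334, 2855 and 15841, as in epithelial cells. Of 8 tested epithelial markers 1 was higher and 2 lower. These are 12.5% and 25%, against 13.3% and 14.8% over all tested genes. By the authors' deposited table EPCAM was the rise, at 0.31 ± 0.05. KRT8 at -0.65 ± 0.07 and KRT18 at -0.61 ± 0.07 were the falls. CDH1 and ELF3 had lower mean counts, 293 and 90.9, and were not called. Of 12 fibroblast markers, 6 were at 0 (COL1A2, DCN, LUM, PDGFRA, THY1 and POSTN), and of 5 tested 3 were higher and 2 lower (60% and 40%). Their summed normalized counts were 824 to 885 in parental and 1016 to 1061 in resistant libraries. PDGFRB, a growth factor receptor gene, carried that rise, at 0.922 to 5.56 in parental and 628 to 671 in resistant libraries. Without it the sum was 818 to 884 in parental and 368 to 407 in resistant libraries. FBLN1 fell, with 453 to 489 in parental and 89.2 to 96.2 in resistant libraries, and so did SFRP1, with 334 to 388 and 198 to 245. The other called rises were COL1A1, given above, and C1S, with 5.80 to 9.27 in parental and 45.4 to 56.1 in resistant libraries. Of 7 blood and endothelial markers, 3 were at 0 (PTPRC, CD3E and VWF), and the sums fell from 34.1 to 40.8 in parental to 14.1 to 17.7 in resistant libraries. The markers thus did not move one way, and their part in the rises of CDKN1A and CDKN2B was not tested.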

How the data were processed

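Polyadenylated RNA was sequenced as barcoded 3′-end libraries (a bulk form of MARS-seq) for which the authors used cutadapt, STAR, HTSeq and DESeq2 on GRCh38 (hg38), per the submitters' processing notes; versions, strand and barcode collapsing are not given in the sources used here. The deposited table of the authors' comparison holds, per the file headers, the mean normalized count (a signal averaged over 6 libraries), the log2 fold change with its standard error, a Wald score, the p-value and the adjusted p-value. The headers name no direction; positive folds are taken to be higher in resistant cells, since the series compares these with parental cells, and every direction rests on that. Calls are the authors' two-sided Wald test with Benjamini-Hochberg adjusted p under 0.05; the count test planned for counts per library did not apply. The labels do not say that replicates were separate cultures, so the p-values cover only a spread that may be technical. The mean counts of all genes sum to 3.97e+06 per library.

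Reads per library were recovered, a step chosen after seeing the data. Genes with a single read show only 6 different means, 1 for each library's size factor, shared by 97 to 277 genes each. Whole-read combinations that give a gene's mean to 15 significant digits were kept where refitting the authors' model gave their fold change within 1e-09 and no other combination did. This recovered all 9 of the genes with reads, 150 of 151 list genes with a mean of at most 1200 (all but TAGLN), and 100 of 100 drawn as a check. A library's group is the sign of the fold of its 1-read genes; libraries are not tied to replicate numbers. Fold intervals come from the authors' standard errors, which hold the fitted spread between libraries; floors cover counting error only. No columns of per-sample values were left unused (0).

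The 10 genes and the gene lists were chosen with earlier results of these data known. From each list, up to 3 called rises and 3 called falls of largest fold with a fitted count of at least 1 in the lower group are named, with RB1, E2F1, CCNE1, CCNE2 and CDK2; TP63, CTGF, RPL10 and CDKN2B-AS1 were added after their values were seen, and some genes and lists are not reported here. Likeness between genes was not computed. Positions are from GENCODE 29 by symbol, for 12639 tested genes (93.7%). Python 3.11, numpy 2.4.6, pandas 2.3.3, scipy 1.17.1 and matplotlib 3.10.9 were used. Alternatives covered the threshold, the filter, the adjustment, centring, position and each library left out.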

Additional observations from a re-analysis of the deposited data

How the results depend on the processing

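Of the values of the 8 tested genes under other settings, 101 kept their direction and their side of the threshold. Of the rest, 1 reversed and 2 lost their call. Settings that change only the threshold, the filter or the adjustment keep the authors' fold, so direction was fixed there. A gene that was not called also cannot pass a stricter rule, so the 101 is not a measure of robustness. CDK4, which was not called, turned from 0.09 to -0.11 less its neighbours' median. CCND1 at -0.42 was lost where a call also needed a 2-fold change, by construction, and less its neighbours' median it stood at -0.088 and did not pass. Genes called in the whole table went from 3800 to 1382 with the 2-fold rule, and members called from 3 to 2. At an adjusted p under 0.01, with no filter on the mean count, at a mean count of at least 10, centred on well-expressed genes, or with Benjamini-Yekutieli adjustment, 3 members stayed called and 2871, 3682, 3682, 3794 and 2570 genes were called. Of list counts, 58 stayed within 1.5 times and 20 moved, 1 of them after centring, in the senescence-linked loss list. Leaving out each library in turn, with the authors' dispersion held, changed no call of the 8 genes; values ran from -0.46 to -0.40 for CCND1, 2.45 to 2.67 for CDKN1A and 1.02 to 1.22 for CDKN2B. For the genes that were not called they ran, for CDK4, from 0.023 to 0.20, for CDK6 from 0.22 to 0.48, for CDKN2C from 0.098 (without the smallest parental library) to 0.39, for CDKN1B from -0.29 to -0.11 and for CCND3 from 0.15 to 0.22. No paired analysis was possible because the recovered libraries carry no replicate numbers. Other count tools were not run, as no count table was used here, and setting a lower group to a count of 1 touched no tested member. Low counts limit CDKN1C and CCND2 most, and whether depth was the reason was not tested.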

Other observations

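Of 28 tested cyclin and CDK genes outside the G1 lists, 2 (7.14%) were higher and 4 (14.3%) lower, near or below the 13.3% and 14.8% over all tested genes, with a median log2 fold change of 0.07. CCNB1, the cyclin that drives entry into mitosis, fell by 1.09 ± 0.08, its relative CCNB2 by 0.53 ± 0.12 and CCNF, a ubiquitin ligase subunit with a cyclin fold, by 0.39 ± 0.15 on the log2 scale of the authors' deposited table. CCNI (0.36 ± 0.13) and CDK5 (0.34 ± 0.13), a kinase best known from neurons, rose by the authors' deposited table. Of 5 tested genes that fall in senescent cells, where CDKN1A and CDKN2B are high, 2 were lower and 0 higher. The Wald test at an unadjusted p of 0.05 gave the same counts. This is 40% lower, against 14.8% over all tested genes, in a list of only 5. By the authors' deposited table the called genes were the nuclear lamina gene LMNB1 at -0.86 ± 0.17 (adjusted p = 6.53e-06) and HMGB2 at -0.21 ± 0.08 (adjusted p = 0.0253). Centring on well-expressed genes left 1 of these calls. HMGB1 at 0.20 ± 0.48, EZH2 at 0.20 ± 0.12 and HELLS at -0.15 ± 0.37 were not called. Whether the resistant cells were senescent was not tested.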
